A study of Homo sapiens with 6 samples.

Results

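The 42 genes described here are the amino acid stress response genes that ATF4 is known to govern, taken by symbol from a fixed list, out of 22604 genes counted. They were measured by RNA-seq in SKNMC, an established human Ewing sarcoma cell line grown in RPMI-1640 medium with serum. The cells carried 1 of 3 lentiviral expression constructs, namely an empty vector (EV), V5-tagged wild-type NFIB (NFIB WT) or NFIB lacking its C-terminal disordered region (NFIB ΔIDR), and all 3 groups had passed the same puromycin selection. NFIB is a transcription factor of the nuclear factor I family, and the disordered region is a stretch of the protein without a fixed fold. Each group had 2 libraries, and the labels name no amino acid deprivation or other stressor.

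ATF4 is the effector of the integrated stress response. When uncharged tRNA, unfolded protein or other stress leads to phosphorylation of eIF2, general translation slows while ATF4 mRNA is translated more, so that ATF4 protein can change without a change in its mRNA. ATF4 pairs with C/EBP proteins on C/EBP-ATF response elements and turns on genes for amino acid synthesis, uptake and tRNA charging, together with factors such as CHOP (DDIT3) and TRIB3 that feed back on the response.

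The response element is visible in the start regions of many of these genes. It was searched as TGATGNAA on both strands in windows from 250 bases before to 50 bases after each start site, from RefSeq on GRCh38.p14. Of 37 members with a window, 13 (35.1%) held a match, against 4.46% of the 27305 genes in the same table. By role, a match was held by 6 of 10 tRNA charging and export genes, 1 of 7 synthesis genes, 2 of 5 transporters, 2 of 7 factors and 2 of 8 effectors, and differences between these small groups were not tested. The following 30-base stretches, read 5′ to 3′ on the strand of the gene with the match in capitals, are shown because they are the element in the 2 genes whose levels differed between NFIB WT and NFIB ΔIDR and had a match, followed by 4 other members with a match upstream of the start.
GARS, chr7:30594834-30594863, plus strand: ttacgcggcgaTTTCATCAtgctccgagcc
ASNS, chr7:97872458-97872487, minus strand: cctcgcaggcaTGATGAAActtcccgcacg
CHAC1, chr15:40953251-40953280, plus strand: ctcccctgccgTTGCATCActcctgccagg
HERPUD1, chr16:56931955-56931984, plus strand: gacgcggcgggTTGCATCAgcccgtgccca
AARS, chr16:70289675-70289704, minus strand: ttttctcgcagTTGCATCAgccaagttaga
CEBPG, chr19:33374060-33374089, plus strand: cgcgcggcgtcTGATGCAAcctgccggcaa

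The GARS match began 33 bases before its start site and the ASNS match 68 bases before. Of the 13 genes with a match, 8 had it upstream of the start. The palindrome bound by NFI proteins, TTGGC and GCCAA 5 bases apart, was found in 0 of the 37 members and in 10 genes of the table (0.0366%). A sequence this rare could hardly turn up among 37 genes, so the count of 0 cannot show whether the members lack NFI sites. The shorter NFIB motif named in the paper, TGGCA, was not searched. A match is a run of letters and not a measured binding site. PSPH, SHMT2, ALDH1L2, SLC7A11 and NUPR1 have no entry in the table.

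The 6 libraries held 6664231 to 8465572 counts assigned to genes. Levels are given as CPM, the counts divided by the TMM-scaled size of the library and put on the usual per-million scale, where 1 CPM stood for 6.67 to 8.37 counts. NFIB itself stood at 175.7 and 144.6 CPM in EV, 969.2 and 1051 in NFIB WT and 2227 and 2332 in NFIB ΔIDR, and was lower in NFIB WT than in NFIB ΔIDR (log2 fold change -1.17, adjusted p = 0.000191). Counts for NFIB sum the endogenous and the construct transcript, which the counts do not separate. Whether the unequal NFIB level bears on the results below was not tested, and between NFIB WT and NFIB ΔIDR it cannot be told apart from the deletion. All 6 Ewing sarcoma markers looked at were expressed in every group, from NR0B1 at a mean of 21.1 to 25.1 CPM up to CCND1. Of these, CCND1 was higher in NFIB WT than in NFIB ΔIDR (1606 and 1553 against 1202 and 1163 CPM, log2 fold change 0.42, adjusted p = 0.00524) and STEAP1 was lower (220.6 and 223.6 against 275.3 and 285.4 CPM, log2 fold change -0.34, adjusted p = 0.0258). Of 9 markers of other cell types, 6 had 0 to 5 counts in every library, while the leukocyte gene PTPRC averaged 257.1 to 297.1 CPM. The libraries were of whole cultures, in which fewer cells of a type and less RNA per cell cannot be told apart.

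Expression of the members covered a wide range. In EV, per kilobase of transcript, SLC38A2, a transporter of small neutral amino acids, was highest at 224 CPM per kilobase, and isoleucyl-tRNA synthetase IARS followed at 146. The mitochondrial folate enzyme MTHFD2 stood at 144 and ATF4 at 138 on the same scale. ADM2, a secreted peptide, was lowest of the tested members at 0.745. Of the 42 members, 40 passed the filter on low counts. GDF15, a secreted stress cytokine, had 0 and 0 counts in EV, 1 and 0 in NFIB WT and 1 and 0 in NFIB ΔIDR, and a count of 0 allows up to 0.358 to 0.45 CPM in these libraries (3 counts, counting error only). NUPR1, a stress-induced chromatin protein, had 1 and 0 counts in EV, 3 and 12 in NFIB WT and 1 and 2 in NFIB ΔIDR, and neither gene was tested.

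**Figure D1:**
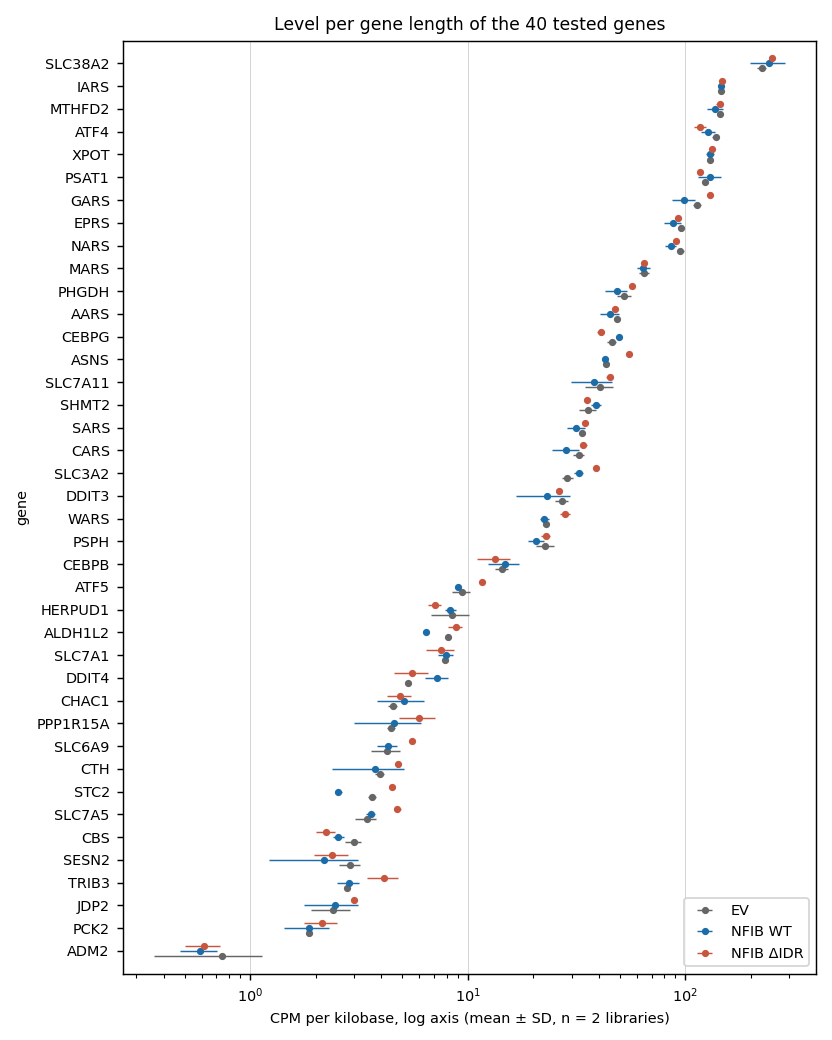
Level of the members in EV, NFIB WT and NFIB ΔIDR in CPM per kilobase on a log axis, with points at group means and bars of 1 SD (n = 2 libraries). SLC38A2 sits at the top, at 224 in EV, and ADM2 at 0.745 is lowest of the tested members.

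The first comparison asked whether wild-type NFIB altered these genes relative to the empty vector. No member was called by edgeR's quasi-likelihood test at an adjusted p under 0.05 over the 13501 genes tested, where 0.452% of all genes were called higher and 0.163% lower, and DESeq2 called 0 members as well, with 0.555% of all genes called in either direction. At an unadjusted p under 0.05, 1 member was higher (2.5%, where 6.93% of all genes were) and 2 were lower (5%, where 6.42% were). The median log2 fold change was -0.02 over the members and 0.00 over all genes, with 15 members above 0 and 25 below. For 33 of the 40 (82.5%), the 95% interval of the fold change lay within 1.5-fold in either direction, against 59.7% of all genes. Larger changes than this were thus outside the interval for most of the list. The median SE was 0.11 over the members and 0.14 over all genes in each of the 3 comparisons. Such shares therefore also reflect how precisely the genes were measured. Both NFIB WT libraries lay above both EV libraries for 3 members (7.5%), where 21.7% of all genes did so, and below for 8 (20%), where 21.2% did so.

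The 3 members with an unadjusted p under 0.05 in this comparison were DDIT4, higher in NFIB WT, and STC2 and ALDH1L2, lower. DDIT4, an inhibitor of mTORC1, stood at 9.418 and 9.201 CPM in EV and 13.8 and 11.6 in NFIB WT, a log2 difference of 0.44 (SE 0.18, adjusted p = 0.322). The count of 0 depended on the NFIB WT libraries, since without replicate 1 of NFIB WT 3 members were called (7.32%, where 3.68% of all genes were) and without replicate 2 there were 13 (32.5%, where 21.9% of all genes were), of which 3 were higher and 10 lower. Calls thus rose across all genes and not in the members alone.

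The second comparison asked the same of NFIB ΔIDR. Again 0 members were called by edgeR and 0 by DESeq2, where edgeR called 0.296% of all genes higher and 0.356% lower. DESeq2 called 0.89% of all genes in either direction. At an unadjusted p under 0.05, 8 members were higher (20%, where 7.77% of all genes were) and 2 were lower (5%, where 7.42% were). The median log2 fold change was 0.06 (0.00 over all genes), with 25 members above 0 and 15 below. Both NFIB ΔIDR libraries lay above both EV libraries for 17 members (42.5%), against 26.2% of all genes, and below for 5 (12.5%), against 27.1%. For 27 members (67.5%) the 95% interval lay within 1.5-fold, against 60.5% of all genes.

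The result of this comparison depended on whether both NFIB WT libraries were in the fit. In a fit of EV and NFIB ΔIDR alone, 9 members were called higher (22.5%, where 6.85% of all genes were) and 1 lower (2.5%, where 7.32% were). Those higher were the transporters SLC3A2, SLC7A5, SLC38A2, SLC7A11 and SLC6A9, the enzymes ASNS, GARS and WARS and the pseudokinase TRIB3, and the gene lower was ATF4. In that fit SLC3A2 had an adjusted p of 1.94e-07, ASNS of 1.38e-05 and ATF4 of 0.000702. SLC7A11 (0.0488) and SLC6A9 (0.05 after rounding) stood at the threshold. The SE of SLC3A2 was 0.09 with all 6 libraries and 0.07 in the fit of 2 groups. For SLC7A5 the log2 fold change was 0.48 and the SE 0.14 in both fits, while its unadjusted p was 0.00523 and 0.000648 in that order. With difference and SE alike, its lower p came from how well the test took the spread to be known, not from a sharper measurement. The p values of the 2 fits are therefore not on a like footing, and those of the fit of 2 groups rest on 2 libraries against 2. The fit of all 6 libraries without replicate 1 of NFIB WT called 9 members (22%, where 13.2% of all genes were called) and without replicate 2 called 10 (25%, where 13.3% were). Over all genes, the log2 difference between the 2 replicates had an SD of 0.281 in EV, 0.376 in NFIB WT and 0.279 in NFIB ΔIDR, and over the members 0.222, 0.325 and 0.171.

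**Figure D2:**
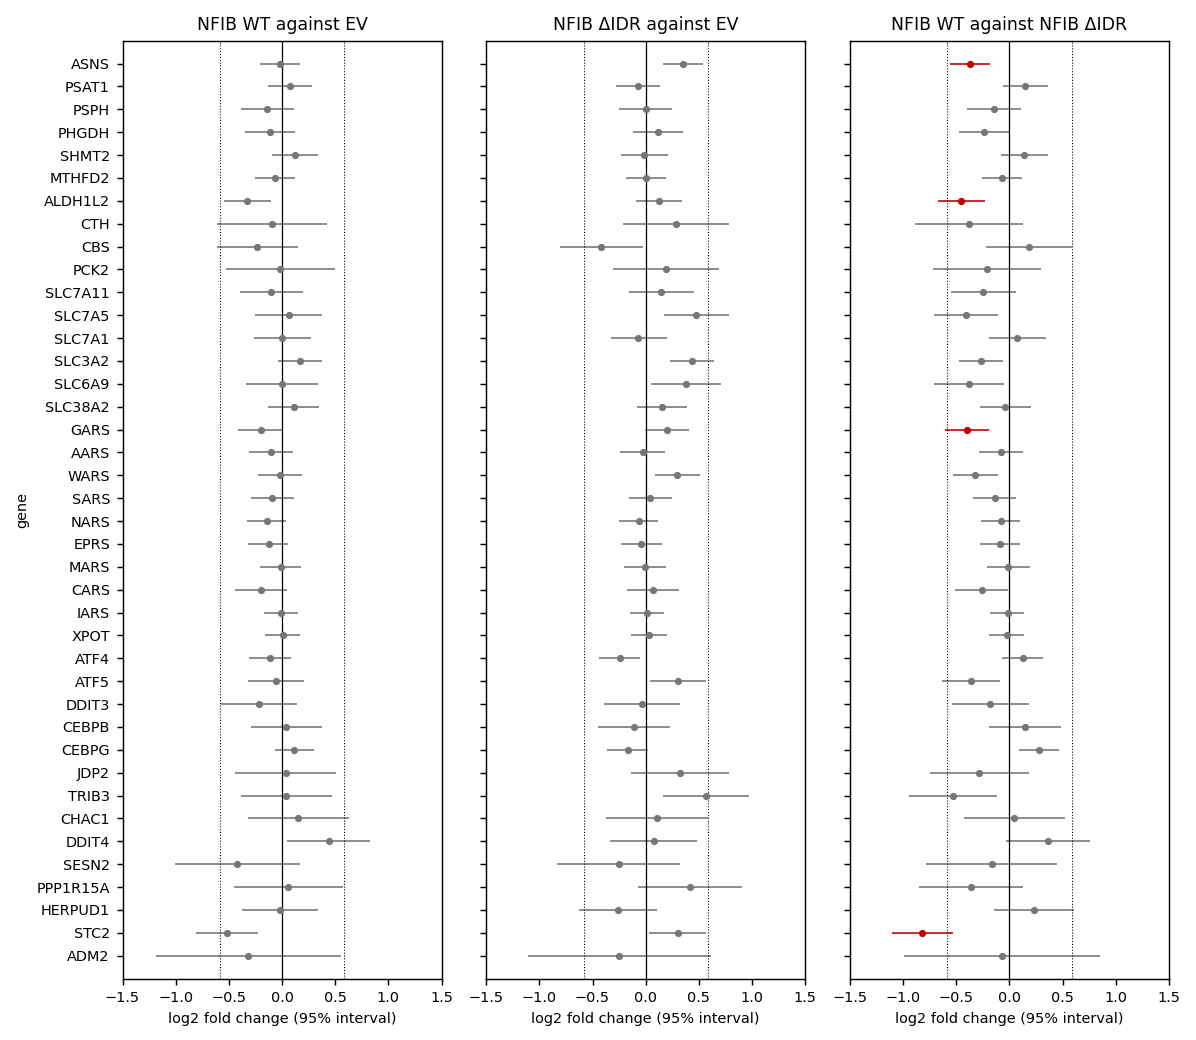
Log2 fold change of each tested member with its 95% interval from the fit of all 6 libraries, for NFIB WT against EV, NFIB ΔIDR against EV and NFIB WT against NFIB ΔIDR, with members grouped by role. Most intervals hold 0, and the called members STC2, ALDH1L2, ASNS and GARS lie below 0 in the direct comparison.

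The direct comparison set NFIB WT against NFIB ΔIDR. These groups differ in the disordered region and in NFIB level, and the comparison cannot tell the 2 apart. Between NFIB WT and NFIB ΔIDR, 4 of 40 members (10.0%) were lower in NFIB WT, where 5.19% of all genes were, and 0 were higher, where 5.52% of all genes were. At an unadjusted p under 0.05, 11 members were lower (27.5%, where 13.6% of all genes were) and 1 was higher (2.5%, where 13.9% were). DESeq2 called 2 members (5%), GARS and STC2, both lower, where it called 5.41% of all genes in either direction and 2.2% lower. The median log2 fold change was -0.14 over the members and 0.00 over all genes, with 10 above 0 and 30 below. Both NFIB WT libraries lay below both NFIB ΔIDR libraries for 18 members (45.0%), against 27.8% of all genes, and above for 6 (15%), against 27.6%. The interval lay within 1.5-fold for 24 members (60.0%), against 51.1% of all genes. This comparison shares its libraries with the other two and is not a separate set of measurements. Leaving out a library moved the count widely, and the count over all genes with it. Without replicate 1 of NFIB WT 14 members were called (34.1%, where 17.4% of all genes were), and without replicate 2 there were 16 (40%, where 31.6% were). Without replicate 1 or replicate 2 of EV 1 member was called, STC2 (5.14% and 5.2% of all genes), and without replicate 1 or replicate 2 of NFIB ΔIDR there were 0 (0.815% and 0.783% of all genes).

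Among the effectors and secreted factors, STC2 was lower in NFIB WT than in NFIB ΔIDR. STC2 encodes stanniocalcin 2, a secreted glycoprotein, at 5:172741726-172755450 on the minus strand of hg19. It stood at 18.8 and 19.96 CPM in EV, 13.2 and 13.9 in NFIB WT and 23.5 and 24.4 in NFIB ΔIDR. The 3 groups did not overlap, with NFIB WT lowest and NFIB ΔIDR highest. The direct log2 fold change, taken as NFIB WT over NFIB ΔIDR, was -0.82 (SE 0.13, 95% interval -1.10 to -0.53, adjusted p = 0.00425). Against EV it was -0.52 in NFIB WT (SE 0.13, adjusted p = 0.126) and 0.30 in NFIB ΔIDR (SE 0.12, adjusted p = 0.274), so neither passed. The STC2 window held no match to the response element. STC2 was called in 9 of 11 alternative fits, and it lost the call without either library of NFIB ΔIDR, with adjusted p up to 0.068.

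The other effectors gave no call. They are the glutathione-degrading enzyme CHAC1, the mTORC1 inhibitors DDIT4 and SESN2, the eIF2 phosphatase subunit PPP1R15A, the ER-associated degradation component HERPUD1 and the peptide ADM2. Their direct log2 fold changes ran from -0.36 for PPP1R15A to 0.37 for DDIT4, with adjusted p of at least 0.213. These genes were low, at 2.38 to 16.3 CPM in group means, and their intervals were wide. That of SESN2 ran from -0.78 to 0.45 and that of ADM2 from -0.99 to 0.85.

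Of the 10 synthesis genes, ALDH1L2 and ASNS were lower in NFIB WT than in NFIB ΔIDR and 8 had no call. ASNS makes asparagine from aspartate and glutamine and lies at 7:97480989-97501854 on the minus strand of hg19. It stood at 110.1 and 107.5 CPM in EV, 108.9 and 106.3 in NFIB WT and 140.8 and 136.4 in NFIB ΔIDR. The EV and NFIB WT libraries overlapped, and both NFIB ΔIDR libraries were above all the others. The direct log2 fold change was -0.37 (SE 0.09, adjusted p = 0.024). Against EV the log2 fold change of ASNS was -0.02 in NFIB WT (adjusted p = 0.95) and 0.35 in NFIB ΔIDR (adjusted p = 0.0987).

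ALDH1L2 is a mitochondrial enzyme of folate metabolism at 12:105413562-105501421 on the minus strand of hg19. Its level was 61.8 and 59.9 CPM in EV, 48.4 and 48.6 in NFIB WT and 69.7 and 62.9 in NFIB ΔIDR. The NFIB WT libraries were the lowest pair and the 3 groups did not overlap. The direct log2 fold change was -0.45 (SE 0.10, adjusted p = 0.0198), against -0.33 for NFIB WT over EV (adjusted p = 0.207) and 0.12 for NFIB ΔIDR over EV (adjusted p = 0.607). ASNS and ALDH1L2 were each called in 5 of 11 alternative fits, with adjusted p up to 0.21 and 0.206. Both lost the call with DESeq2, in the fit of 2 groups, and without any single library of EV or NFIB ΔIDR.

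The other 8 synthesis genes gave no call. PHGDH, PSAT1 and PSPH, which make serine from a glycolytic intermediate, had direct log2 fold changes of -0.23, 0.15 and -0.14. SHMT2 and MTHFD2, which pass the serine carbon into mitochondrial folate, had 0.14 and -0.07. The transsulfuration enzymes CBS and CTH had 0.19 and -0.38, and the mitochondrial PEP carboxykinase PCK2 had -0.21. The lowest adjusted p of these 8 was 0.184, for PHGDH.

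**Figure D3:**
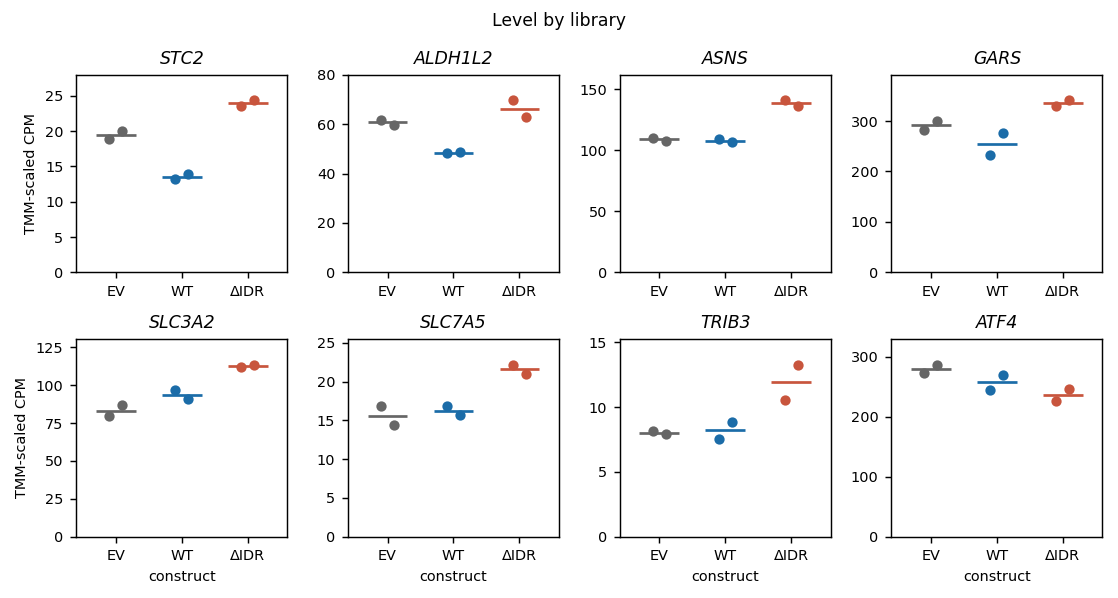
CPM scaled by TMM in each library (points) and the group mean (bars across) for STC2, ALDH1L2, ASNS, GARS, SLC3A2, SLC7A5, TRIB3 and ATF4. For ASNS the EV and NFIB WT libraries overlap near 110.1 and both NFIB ΔIDR libraries are above 136. ATF4, which had no call, has its lowest group mean in NFIB ΔIDR, at 236.9. Its NFIB ΔIDR libraries, at 226.6 and 247.1, overlap those of NFIB WT.

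Of the 10 genes of tRNA charging and export, GARS, the glycyl-tRNA synthetase at 7:30620149-30673649 on the plus strand of hg19, was lower in NFIB WT than in NFIB ΔIDR. Its level was 283.1 and 300.2 CPM in EV, 233.1 and 275.7 in NFIB WT and 329.8 and 341.0 in NFIB ΔIDR. The 3 groups did not overlap, and the NFIB WT libraries differed from each other more than those of the other groups. The direct log2 fold change was -0.40 (SE 0.10, adjusted p = 0.0254), and neither construct passed against EV (-0.20 with adjusted p = 0.402, and 0.20 with adjusted p = 0.349). GARS was called in 6 of 11 alternative fits, with adjusted p up to 0.232, and it lost the call in the fit of 2 groups and without any single library of EV or NFIB ΔIDR.

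The tryptophanyl synthetase WARS stood nearest to a call, at 68.5 and 67.2 CPM in EV, 64.6 and 69.0 in NFIB WT and 80.2 and 86.7 in NFIB ΔIDR (direct log2 fold change -0.32, SE 0.10, adjusted p = 0.0595). The cysteinyl synthetase CARS had -0.26 (adjusted p = 0.162). AARS, SARS, NARS, EPRS, MARS and IARS, which charge alanine, serine, asparagine, glutamate with proline, methionine and isoleucine, and the tRNA exporter XPOT had direct log2 fold changes from -0.14 to -0.01. All 10 genes were thus below 0 in the direct comparison, of which 1 passed the test. Against EV, the median log2 ratio of the 10 was -0.20 in replicate 1 of NFIB WT, -0.04 in replicate 2, and 0.02 and 0.01 in the NFIB ΔIDR libraries, so the NFIB WT libraries differed among themselves more than NFIB ΔIDR did from EV.

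No transporter was called in any comparison of the fit of all 6 libraries by edgeR or by DESeq2. At an unadjusted p under 0.05, 3 of 6 were higher in NFIB ΔIDR than in EV, where 7.77% of all genes were. In the direct comparison 3 of 6 were lower in NFIB WT, where 13.6% of all genes were. SLC3A2, the heavy chain that carries several amino acid exchangers to the membrane, stood at 79.98 and 86.6 CPM in EV, 96.9 and 90.8 in NFIB WT and 112.0 and 113.7 in NFIB ΔIDR. SLC7A5, the light chain for large neutral amino acids, stood at 16.8 and 14.3, then 16.8 and 15.7, then 22.2 and 21.0 in the same order. For both genes the NFIB ΔIDR libraries were above all 4 others. SLC3A2 stood 0.44 above EV on the log2 scale in NFIB ΔIDR (SE 0.09, adjusted p = 0.0667) and -0.27 in the direct comparison (adjusted p = 0.0937). SLC7A5 had 0.48 (SE 0.14, adjusted p = 0.139) and -0.41 (adjusted p = 0.0822). The glycine transporter SLC6A9 had 0.38 against EV in NFIB ΔIDR (adjusted p = 0.26).

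The remaining transporters had no call, and some of them varied between the NFIB WT libraries. The cystine-glutamate exchanger light chain SLC7A11 ranged from 310.9 to 444.6 CPM over the 6 libraries, with 420.7 and 310.9 in the NFIB WT pair alone. SLC38A2 ranged from 1031 to 1336, both of them in NFIB WT. The cationic amino acid transporter SLC7A1 ranged from 49.5 to 61.3. The median log2 ratio of the 6 transporters to EV was 0.29 and 0.27 in the NFIB ΔIDR libraries and 0.12 and -0.08 in NFIB WT.

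**Figure D4:**
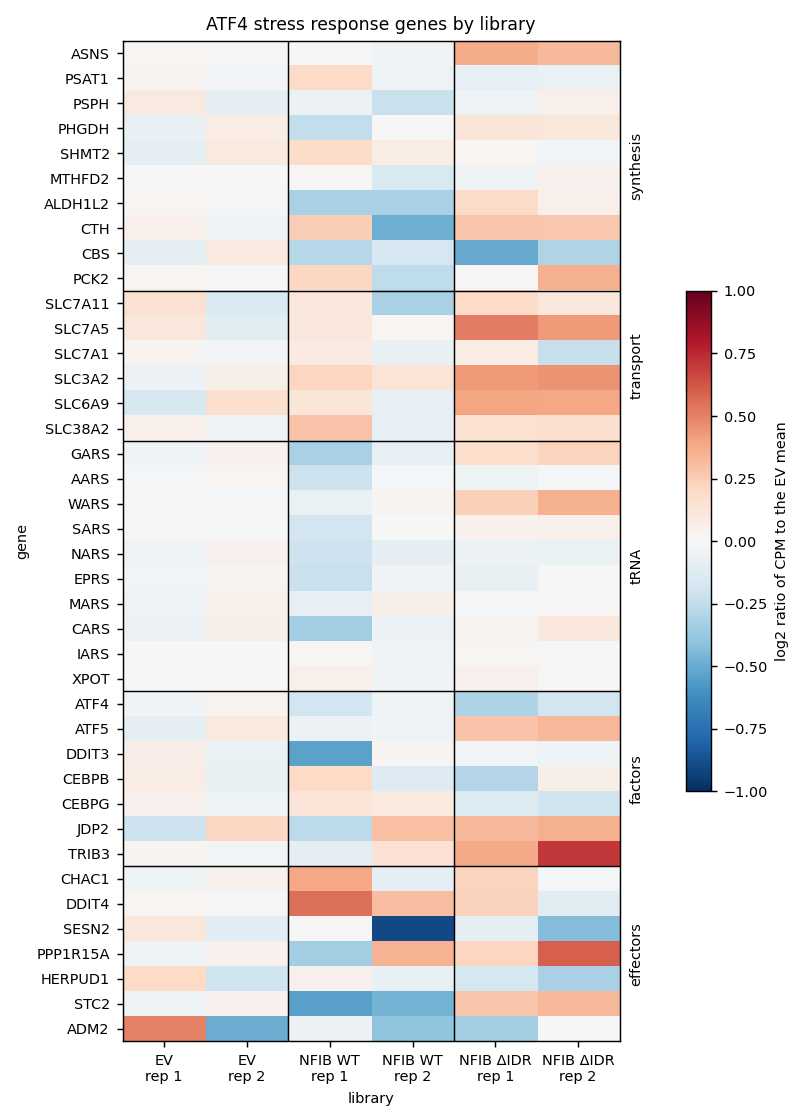
Log2 ratio of the CPM of each tested member to the EV mean (colour, red above and blue below), with 1 column per library and members grouped by role. The transporters SLC3A2, SLC7A5 and SLC6A9 are above EV in both NFIB ΔIDR libraries, and the 2 NFIB WT columns differ from each other in genes such as SESN2 and CTH.

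Among the 8 transcription factors and their regulators, 7 were tested and none was called in the fit of all 6 libraries by edgeR, nor by DESeq2. At an unadjusted p under 0.05, 2 were higher and 1 lower in NFIB ΔIDR against EV, where 7.77% and 7.42% of all genes were. In the direct comparison 1 was higher and 2 lower, where 13.9% and 13.6% of all genes were. ATF4 itself stood at 273.0 and 287.4 CPM in EV, 245.4 and 270.7 in NFIB WT and 226.6 and 247.1 in NFIB ΔIDR. The NFIB ΔIDR libraries were below both EV libraries and overlapped with NFIB WT. The log2 fold change of ATF4 against EV was -0.24 in NFIB ΔIDR (SE 0.09, adjusted p = 0.233) and -0.12 in NFIB WT (SE 0.09, adjusted p = 0.578). Of the 40 tested members, 25 stood above EV in NFIB ΔIDR, ASNS, SLC3A2 and TRIB3 among them. The other 15 stood below EV, with CBS, HERPUD1 and CEBPG beside ATF4, and none of the 40 was called in this fit.

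TRIB3, a pseudokinase that restrains ATF4 and CHOP, stood at 8.19 and 7.89 CPM in EV, 7.50 and 8.89 in NFIB WT and 10.6 and 13.3 in NFIB ΔIDR. Its log2 fold change was 0.56 in NFIB ΔIDR against EV (SE 0.18, adjusted p = 0.185) and -0.53 in the direct comparison (adjusted p = 0.0958). ATF5, a factor related to ATF4, had -0.36 in the direct comparison (adjusted p = 0.0829), and CEBPG, a heterodimer partner of ATF4, had 0.28 (SE 0.09, adjusted p = 0.0619). DDIT3, CEBPB and JDP2 had -0.18, 0.15 and -0.28, each with an adjusted p of at least 0.413. CEBPG was thus the member with an unadjusted p under 0.05 that stood higher in NFIB WT than in NFIB ΔIDR.

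The rest of the pathway and its neighbouring stress programmes were read from 102 genes outside the list, 99 of them tested. Against EV, edgeR and DESeq2 called 0 of these with either construct, and at an unadjusted p under 0.05 there were 7 higher (7.07%) and 4 lower (4.04%) in NFIB WT and 9 higher (9.09%) and 5 lower (5.05%) in NFIB ΔIDR. Over all genes the shares were 6.93% and 6.42%, and 7.77% and 7.42%, in the same order. Between NFIB WT and NFIB ΔIDR 2 were higher (2.02%) and 6 lower (6.06%), beside 5.52% and 5.19% of all genes. DESeq2 called XBP1 and SESN1 higher and FARSB and NQO1 lower.

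Further ATF4 targets held 3 of the edgeR calls among 17 tested (17.6%), all lower in NFIB WT, where 5.19% of all genes were. DESeq2 called none of the 3. ATF3, a stress-induced factor, averaged 8.27 CPM in NFIB WT and 13.4 in NFIB ΔIDR (log2 fold change -0.69, adjusted p = 0.034). TSC22D3, also known as a glucocorticoid-induced gene, averaged 5.67 and 10.97 (-0.95, adjusted p = 0.0147), and the mitochondrial folate enzyme MTHFD1L 46.9 and 62.7 (-0.41, adjusted p = 0.0381). Of 10 other cytosolic synthetases, the phenylalanyl synthetase subunit FARSB was lower (10% of the list, 218.3 and 276.4 CPM, -0.34, adjusted p = 0.0233). None of 16 mitochondrial synthetases and none of 17 genes for the eIF2 kinases, eIF2, eIF2B and their regulators was called by edgeR in any comparison. At an unadjusted p under 0.05 there were at most 2 of the 16, higher in NFIB WT than in EV, where 6.93% of all genes were. Of the 17 there were at most 4, in the direct comparison, with 1 higher and 3 lower, where 13.9% and 13.6% of all genes were.

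Other stress programmes gave 1 or 2 edgeR calls each between NFIB WT and NFIB ΔIDR, where 5.52% of all genes were higher and 5.19% lower. Of 19 ER chaperones and ATF6 or XBP1 targets, XBP1 (5.26% of the list) was higher in NFIB WT, at 34.6 against 22.8 CPM (adjusted p = 0.0174). Of 8 NRF2 targets, the quinone reductase NQO1 (12.5% of the list) was lower, at 18.3 against 29.5 (adjusted p = 0.00679). Of 12 p53 targets, SESN1 was higher (0.66, adjusted p = 0.0102) and the death receptor FAS lower (-0.74, adjusted p = 0.0172). Each of these was 8.33% of the list, and DESeq2 did not call FAS.

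Counting may mix some members with overlapping genes, because no source used here gives the strand setting. In the hg19 annotation 11 members share exon bases with another counted gene, among them ATF5, DDIT3, MARS, WARS, SLC7A11 and CEBPB. STC2, ALDH1L2, ASNS and GARS share none.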

How the data were processed

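Total RNA from SKNMC cells (3 groups of 2 libraries) was sequenced as biological duplicates. The authors converted reads with CASAVA 2.19, aligned them to hg19 with STAR 2.4.0h and deposited raw counts per RefSeq gene from featureCounts. How strand and molecular identifiers were handled is not given in the sources here. The study names DESeq2 with a fold of 1.5.

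The test was the quasi-likelihood F test in edgeR 4.0.16 (R 4.3.3), fitted once to all 6 libraries with 1 mean for each group after TMM scaling. Low genes were dropped by filterByExpr, set to a minimum count of 10 and a minimum total of 15. P values were adjusted by Benjamini-Hochberg over the 13501 genes left and called under 0.05. The fit put the common biological coefficient of variation at 0.0776. The study calls the samples independent and the experiment repeated, without naming separate cultures, and p values measure the spread between these libraries. The scripts were tested on simulated data. Alternatives were DESeq2 1.42.0 with its own size factors, RLE scaling, no filter, a replicate block, a fit of 2 groups, each library left out, and the study's fold with an unadjusted p. Members and gene lists were chosen with earlier results of these data known. All 42 members are accounted for, called members with every library's value, and called genes of other lists by smallest p, at most 4 per list. CPM use TMM-scaled library sizes, and levels per kilobase divide by the deposited gene length. VARS, VARS2, CD99 and KRT5 were not analysed here.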

Additional observations from a re-analysis of the deposited data

How the results depend on the processing

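Each group had 2 libraries, and leaving out 1 leaves a lone library that is assumed to vary like the other groups. The count of members called for NFIB WT against EV was 0 in the fit reported, 1 with no filter on low counts (NUPR1) and 0 to 13 with a library left out. For NFIB ΔIDR against EV it was 0, then 1 with no filter and 1 with the replicate block (SLC3A2 in both), 10 in the fit of 2 groups, and 0 to 10 with a library left out. For NFIB WT against NFIB ΔIDR it was 4, then 2 with DESeq2, 1 in the fit of 2 groups and 1 under the study's fold of 1.5 with an unadjusted p (STC2 in both), 6 with the replicate block, and 0 to 16 with a library left out. RLE scaling changed none of the 3 counts. In the order of the 3 comparisons, no filter called 2.38%, 2.38% and 9.52% of members, beside 2.39%, 2.43% and 10.1% of all genes. The replicate block called 0%, 2.5% and 15%, beside 1.39%, 1.79% and 15.5%. The fit of 2 groups called 0%, 25% and 2.5%, beside 0.0985%, 14.2% and 5.13%. The fold of 1.5 gave 0%, 0% and 2.5%, beside 3.88%, 4.77% and 9.98%. The median log2 fold change of the members ranged from -0.050 to -0.020 with a library left out for NFIB WT against EV. For NFIB ΔIDR against EV it was 0.043 with no filter and 0.040 to 0.057 with a library left out. For NFIB WT against NFIB ΔIDR it was -0.130 with no filter and -0.157 to -0.068 with a library left out.

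Same-numbered libraries did not deviate together throughout (correlations of replicate differences 0.153, 0.016 and 0.054), so the numbers were not taken as pairs. Over 1320 values of single members, 1157 kept direction and side of the threshold, 69 gained a call, 19 lost one and 75 changed sign while called in neither fit. No called member changed sign. The larger spread between the NFIB WT libraries enters every fit of all 6, and why those libraries differ was not tested. At 6664231 to 8465572 counts a library, members near the filter, such as ADM2, have intervals too wide to show changes under 1.5-fold.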
